A study of Mus musculus with 6 samples.

Results

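The genes described here are 36 interferon-stimulated genes that mark the type I interferon response, among 19919 genes measured by microarray in the corpus of the mouse stomach, the region that secretes acid. They were chosen by gene symbol from a given list. A probe set with a listed symbol was found for 34 of them, and Isg15 and Ifi44 were not analysed here. All samples came from female wildtype mice of the Balb/c strain, 8 to 12 weeks old, with total RNA taken from the corpus. The 3 dexamethasone samples came from mice whose drinking water held the synthetic glucocorticoid at 50 mg per litre, given over 3 days and renewed on day 2, and the 3 controls from untreated mice. The labels call the samples biological replicates without saying whether a sample was 1 mouse, so each p-value measures the spread between these samples. The question of the comparison is how the listed genes differ in level under the steroid.

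Type I interferons are secreted proteins, chiefly interferon alpha and beta, that cells release when they sense viral or other nucleic acids. They bind a receptor made of the IFNAR1 and IFNAR2 chains, whose kinases JAK1 and TYK2 start the signal to the nucleus. There the factor ISGF3, which includes STAT2 and IRF9, binds the interferon-stimulated response element in the promoters of its target genes. The products of these genes sense viral RNA, degrade it, block translation or viral budding, or feed back on the pathway. Epithelia and resident leukocytes also keep a low level of the response in the absence of infection. Many inbred laboratory strains of mice, Balb/c among them, carry inactivating variants of Mx1, Mx2 and Oas1b. These 3 genes are annotated as transcribed pseudogenes in the RefSeq table of GRCm38.p6 (strain C57BL/6J), and the other 31 measured genes as protein coding, so that a level of the 3 pseudogenes is one of RNA only.

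Promoter windows of 300 bases, 250 before to 50 after the annotated start of the gene, were available for 23 of the 34 genes. The core of the interferon-stimulated response element, GAAA followed after any 2 bases by GAAA, was searched on both strands. It was present in 12 of the 23 genes (52.2%), against 3.99% of the 27025 genes with a window and 3.93% of the 15122 of these that were also tested on the array. The gamma-activated site TTCNNNGAA, an element of genes that answer interferon gamma, was present in 6 of the 23 (26.1%), against 9.55% of all genes. In 1 of the 27 windows the 2 motifs shared bases. The full palindrome of the glucocorticoid response element, AGAACA and TGTTCT with 3 bases between them, was present in 0 of the 23, against 0.0111% of all genes. Windows hold the reference sequence of C57BL/6J and not of Balb/c.

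The promoters of 3 of the genes that fell under dexamethasone are shown because they differ in this element. Sequences are RefSeq's, 5′ to 3′ along the gene, in lower case, with the response element core in capitals (read as TTTC, any 2 bases, then TTTC where it lies on the opposite strand). The Trim30a promoter holds the core from -36 to -27 relative to the annotated start. In the windows of Oasl2 and Xaf1 these letters were not present, and no window was given for Rtp4.
Trim30a promoter (GRCm38.p6, chr7:104465144-104465443, minus strand): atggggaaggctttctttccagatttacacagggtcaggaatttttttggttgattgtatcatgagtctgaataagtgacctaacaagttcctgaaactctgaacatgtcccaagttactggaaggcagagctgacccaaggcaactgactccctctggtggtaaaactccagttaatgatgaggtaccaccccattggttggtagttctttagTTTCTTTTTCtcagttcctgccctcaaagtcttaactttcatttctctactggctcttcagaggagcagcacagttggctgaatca
Oasl2 promoter (GRCm38.p6, chr5:114896684-114896983, plus strand): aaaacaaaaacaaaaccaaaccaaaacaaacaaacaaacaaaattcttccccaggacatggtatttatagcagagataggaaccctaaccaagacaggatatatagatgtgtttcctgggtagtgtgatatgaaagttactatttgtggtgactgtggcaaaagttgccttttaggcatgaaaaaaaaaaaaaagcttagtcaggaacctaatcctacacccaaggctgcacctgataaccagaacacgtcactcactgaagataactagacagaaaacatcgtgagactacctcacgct
Xaf1 promoter (GRCm38.p6, chr11:72301379-72301678, plus strand): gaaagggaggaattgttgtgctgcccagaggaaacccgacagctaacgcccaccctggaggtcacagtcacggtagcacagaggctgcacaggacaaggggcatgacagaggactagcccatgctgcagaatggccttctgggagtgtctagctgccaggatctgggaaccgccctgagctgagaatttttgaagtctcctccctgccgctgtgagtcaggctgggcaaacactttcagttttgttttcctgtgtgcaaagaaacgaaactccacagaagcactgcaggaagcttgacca

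The core was also present in 11 listed genes that did not pass the test for a change. Not passing does not mean no change. Oas1a, Ifit1 and Ifit3 had log2 changes of -0.29, -0.23 and -0.19, with all dexamethasone samples below all controls, while Oas3 and Bst2 stood at 0.08 and 0.0095. The first site of each gene is shown with 5 bases on each side, so that the letters can be compared with those of Trim30a, which passed.
Ddx58: ggcagTTTCGATTTCctatg
Ifih1: gaatcGAAACAGAAAccgat
Eif2ak2: gccggGAAAACGAAAcagaa
Stat2: cctggTTTCAGTTTCctttc
Oas1a: ctcggGAAATGGAAACTGAAAatcta
Oas1g: ctcggGAAATGGAAACTGAAAatcta
Oas3: gaggaGAAAACGAAAgtgaa
Ifit1: ttcagTTTCACTTTCcagtc
Ifit3: gtaagTTTCACTTTCctctt
Rsad2: ccaacTTTCATTTTCagaaa
Bst2: tccagGAAAATGAAACTGAAAggctg
The sites of Oas1a and Oas1g, neighbouring paralogs, were identical over the letters shown and each held 2 overlapping cores, as did that of Bst2. In Ifit1 a second core lay from -85 to -76, next to the first from -104 to -95. Ifit3 likewise had a second core, from -122 to -113, after the first from -156 to -147. The second annotated start of Trim30a had the same core and flanking letters as its first, from 3 to 12 bases after that start.

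Under dexamethasone 4 of the 34 genes fell and 0 rose (limma, adjusted p under 0.05 over all 19919 genes). Rtp4, Trim30a, Oasl2 and Xaf1 were lower by 1.65-fold, 1.64-fold, 1.46-fold and 1.36-fold. These 4 are 11.8% of the listed genes measured, against 1.04% of all genes lower and 0.798% higher. A further 11 genes were lower at an unadjusted p under 0.05 without passing after adjustment, so that 15 of the 34 (44.1%) were lower at that level, against 7.14% of all genes, and 0 were higher, against 5.97%. The log2 change was below 0 in 30 of 34 genes (88.2%), against 49.1% of all genes, and its median was -0.17, against 0.0023 over all genes. In 17 of 34 (50.0%) all 3 dexamethasone arrays lay below all 3 controls, against 9.46% of all genes, and in 0 of 34 all lay above. With the corpus measured as whole tissue, fewer cells of a type and less RNA per cell cannot be told apart.

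**Figure D1:**
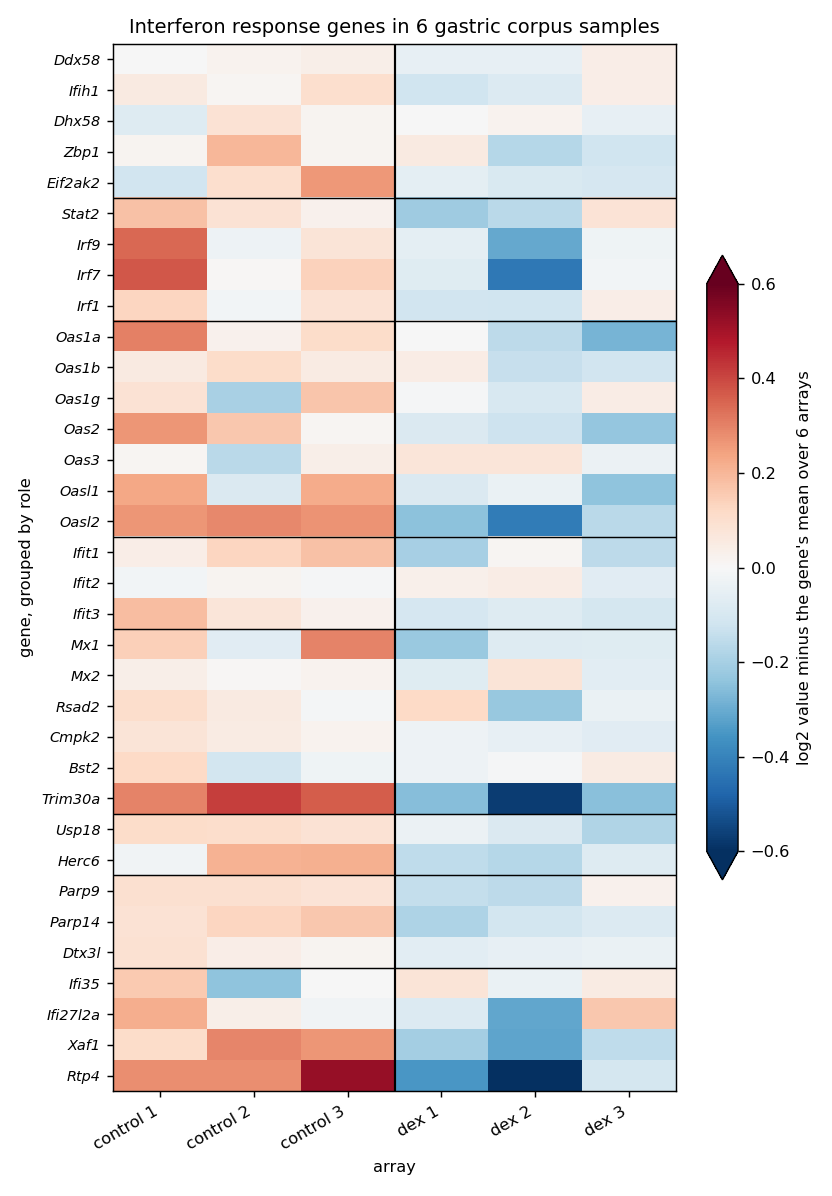
Heat map of the 34 interferon response genes (rows, grouped by role with lines between roles) on the 6 arrays (columns). Colour gives the log2 value minus the gene's mean over 6 arrays, red higher and blue lower; the control columns are mostly red, with 29, 26 and 29 genes above their own mean, and the dexamethasone columns mostly blue, with 6, 5 and 9.

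**Figure D2:**
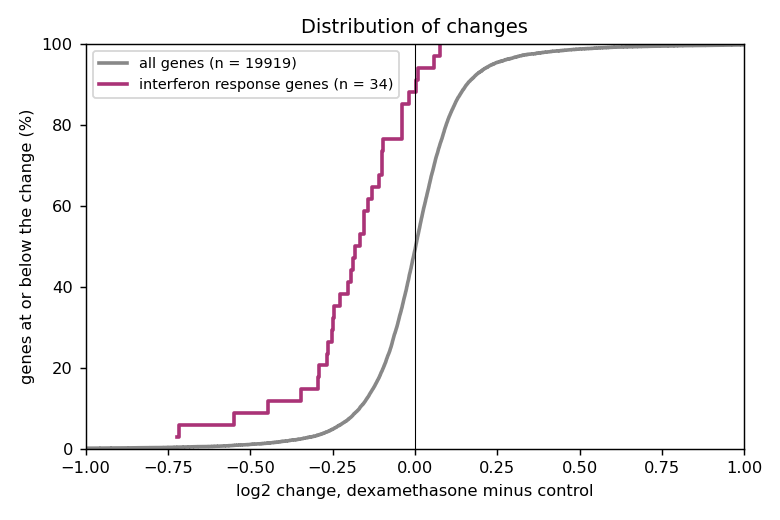
Cumulative share of genes (percent, vertical axis) at or below each log2 change, dexamethasone minus control (horizontal axis, shown from -1 to 1), for all 19919 genes in grey and the 34 interferon response genes in purple. The purple curve lies to the left of the grey, with medians of -0.17 and 0.0023.

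The arrays and the cell markers were looked at before single genes. Across genes, which are no independent replicates, Pearson's r was 0.986 to 0.993 between control arrays, 0.988 to 0.996 between dexamethasone arrays and 0.983 to 0.990 between groups. Defining genes of the corpus, such as Atp4a and Atp4b of the parietal cell proton pump and Pgc of chief cells, had mean log2 values of 13.81, 13.72 and 14.26 in controls and 13.85, 13.77 and 14.25 under dexamethasone, and 0 of 10 corpus markers passed by limma. Of these 10, 6 had a log2 change below 0 and 4 above, with a median of -0.0067. The 2 lower at an unadjusted p under 0.05, and the most negative change of the 10, were in genes of mucous cells. Tff2, a trefoil peptide, had a log2 change of -0.61 (unadjusted p = 0.00518, limma adjusted p = 0.130) and the mucin Muc5ac one of -0.29 (unadjusted p = 0.0109, limma adjusted p = 0.190), both with all dexamethasone samples below all controls. The gland mucin Muc6 stood at -0.81 with groups that overlapped (limma adjusted p = 0.390). Their part in the result was not tested. Fkbp5, a known glucocorticoid target, was higher in each dexamethasone sample, by 3.68-fold (log2 change 1.88, SE 0.26, limma adjusted p = 0.0151). That call was lost when control replicate 2, control replicate 3 or dexamethasone replicate 2 was left out (adjusted p up to 0.0957). Of the 6 such targets looked at, Serpina3n also rose, by 6.37-fold (limma adjusted p = 0.000190), and passed in each of the 6 fits on 5 arrays, while Tsc22d3 stood at 0.33 (limma adjusted p = 0.591). Squamous markers of the neighbouring forestomach split both groups, since their mean over 20 genes was 9.81 in control replicate 2 and 9.97 and 10.009 in dexamethasone replicates 1 and 2, but 8.36 to 8.47 in the other arrays. Of the 20, 18 had a log2 change above 0, with a median of 0.52, and 3 were higher at an unadjusted p under 0.05. The keratin gene Krt6a rose 1.53-fold (limma adjusted p = 0.0362), with all dexamethasone samples above all controls, a call that ended in 4 of the 6 fits on 5 arrays (up to 0.189). With that mean as a covariate, the same 4 interferon response genes passed and 30 of 34 changes were below 0. Lower calls over all genes were 268 in that fit, against 208 without the covariate. At an unadjusted p under 0.05, 12 of the 34 were lower, against 15 without it. Of 15 markers of macrophages and dendritic cells 1 fell (6.67%, against 1.04% of all genes). This was Itgax, which encodes an integrin of dendritic cells (log2 change -0.42, limma adjusted p = 0.0465), and leaving out any 1 of the 6 arrays ended that call (up to 0.225). At an unadjusted p under 0.05, 4 of the 15 were lower (Itgax, Adgre1, Cd68 and Clec9a), against 7.14% of all genes. At that level 1 was higher (Mrc1), against 5.97%, and 6 of 15 changes were above 0. The mean over these 15 was 7.53 to 7.59 in controls and 7.48 to 7.52 under dexamethasone, without overlap, and its part in the result was not tested. Means over markers of plasmacytoid dendritic cells (5 genes), T and NK cells (15), B and plasma cells (11) and endothelium (10) overlapped between the groups, with 0 genes past the threshold in each list by limma and, at an unadjusted p under 0.05, 0, 2, 1 and 2 genes.

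The largest falls among the listed genes were in Rtp4 and Trim30a. Rtp4 encodes a chaperone that carries G protein-coupled receptors to the cell surface. Its log2 values were 8.47, 8.47 and 8.71 in control replicates 1 to 3 and 7.84, 7.56 and 8.09 in the dexamethasone samples. The groups did not overlap, and the dexamethasone samples were the more spread, with an SD of 0.26 against 0.14. The log2 change was -0.72 (SE 0.14, n = 3 per group, limma adjusted p = 0.0464). Trim30a encodes a tripartite motif protein that in mouse macrophages restrains Toll-like receptor signalling. Its values were 8.48, 8.60 and 8.55 in controls and 7.93, 7.62 and 7.93 under dexamethasone, again without overlap. The log2 change was -0.72 (SE 0.096, limma adjusted p = 0.0146). Close Trim30 paralogs could share probes with it. Trim30b and Trim30d had log2 changes of 0.03 and -0.13 and did not pass (limma adjusted p = 0.904 and 0.567). Their mean levels were low, at percentiles 7.26 and 7.31 of all genes, so these values cannot tell whether probes were shared.

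Oasl2 and Xaf1 were the other genes past the threshold. Oasl2, an oligoadenylate synthetase-like protein, stood at 8.13, 8.15 and 8.13 in controls, the tightest controls of the 4, and at 7.62, 7.44 and 7.70 under dexamethasone. Its log2 change was -0.55 (SE 0.077, limma adjusted p = 0.0165). Xaf1, which binds the apoptosis inhibitor XIAP, stood at 7.48, 7.66 and 7.63 in controls and 7.16, 7.05 and 7.22 under dexamethasone. Its change was -0.45 (SE 0.076, limma adjusted p = 0.0338). In all 4 genes dexamethasone replicate 2 was the lowest of the 6 arrays. The calls depended on which array was left out. By limma on 5 arrays, 0 of the 4 passed without control replicate 2 (adjusted p = 0.0536 for Trim30a, 0.0571 for Oasl2, 0.102 for Xaf1 and 0.1003 for Rtp4) or without control replicate 3 (0.0932, 0.0976, 0.180 and 0.211), where 15 and 10 of the 34 were lower at an unadjusted p under 0.05. Trim30a alone passed without dexamethasone replicate 1 (adjusted p = 0.0497) or 2 (0.0300), Rtp4 did not pass without control replicate 1 (0.0629), and all 4 passed without dexamethasone replicate 3. Over all genes the number of lower calls, 208 with all arrays, was 297, 97 and 53 on leaving out control replicates 1, 2 and 3, and 61, 48 and 259 on leaving out dexamethasone replicates 1, 2 and 3. On leaving out 1 array the log2 changes ran from -0.85 to -0.59 for Rtp4, -0.77 to -0.61 for Trim30a, -0.61 to -0.48 for Oasl2 and -0.50 to -0.40 for Xaf1.

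**Figure D3:**
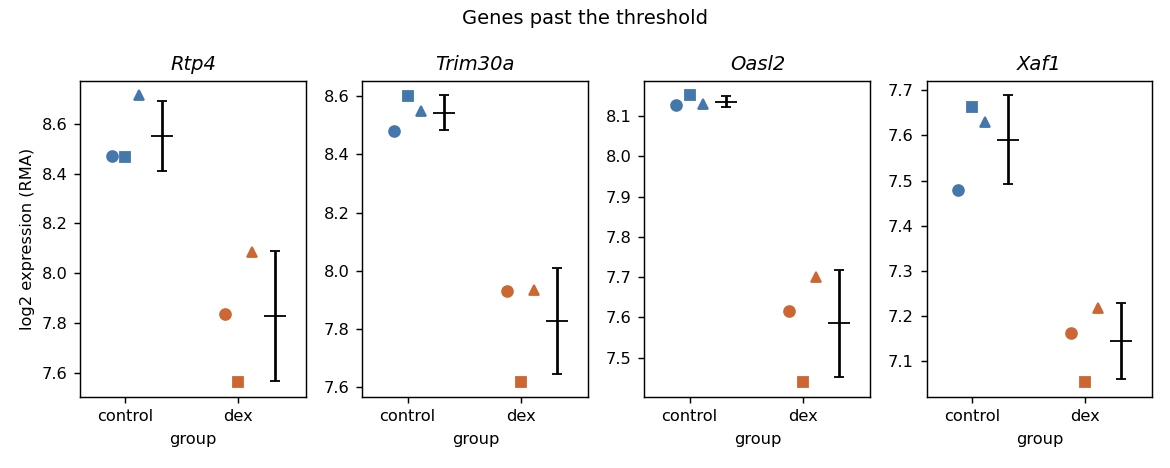
Log2 expression (vertical axis, own scale for each gene) of Rtp4, Trim30a, Oasl2 and Xaf1 in control (blue) and dexamethasone (orange) samples. Circles, squares and triangles are replicates 1, 2 and 3, and bars give the mean and SD of 3 samples; all 3 dexamethasone points lie below all 3 control points in each gene.

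None of the cytosolic sensors of nucleic acids passed the test. Ddx58 (RIG-I), Ifih1 (MDA5) and Dhx58 (LGP2) encode RNA helicases that detect viral RNA, Zbp1 a sensor of Z-form nucleic acids and Eif2ak2 the kinase PKR, which halts translation on binding double-stranded RNA. Of these 5 genes 0 passed by limma, 0 had an unadjusted p under 0.05, and 0 had groups apart. Zbp1 stood at 7.26, 7.44 and 7.26 in controls and 7.30, 7.07 and 7.13 under dexamethasone (log2 change -0.15, 95% interval -0.35 to 0.04, limma adjusted p = 0.512). Eif2ak2 stood at 8.57, 8.79 and 8.94 in controls and 8.63, 8.59 and 8.59 under dexamethasone (log2 change -0.17, interval -0.39 to 0.06). Control replicate 1 of Eif2ak2 was below all 3 dexamethasone samples, whereas the other controls were above them. The intervals for the 3 helicase genes ran from -0.17 to 0.10 for Ddx58, -0.26 to 0.05 for Ifih1 and -0.17 to 0.13 for Dhx58. A 1.65-fold fall like that of Rtp4, which is -0.72 on the log2 scale, lies outside each of these intervals.

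Among the transcription factors the changes were below 0 in 4 of 4 genes, against 49.1% of all genes, and 0 passed. Irf7, the factor that amplifies interferon alpha production, stood at 8.50, 8.14 and 8.27 in controls and 8.06, 7.70 and 8.11 under dexamethasone. The groups did not overlap, and control replicate 2 lay nearest to dexamethasone replicate 3. The log2 change was -0.34 (SE 0.13, unadjusted p = 0.0322, limma adjusted p = 0.315), the most negative of the genes that did not pass. Irf9, the DNA-binding subunit of ISGF3, stood at 8.47, 8.09 and 8.202 in controls and 8.06, 7.81 and 8.09 under dexamethasone, with groups that touched at control replicate 2 and dexamethasone replicate 3 (log2 change -0.26, interval -0.53 to 0.0055). Both genes were highest in control replicate 1 and lowest in dexamethasone replicate 2. With the group means removed their deviations over the 6 arrays had a Pearson r of 0.978, the third highest of the 561 pairs of listed genes, and the points share arrays. The mean r over the 561 pairs was 0.029, with 300 pairs above 0, against 0.0019 over all pairs of the 19919 genes. Stat2 had a log2 change of -0.20 (interval -0.40 to 0.014) and Irf1, a factor that also answers interferon gamma, -0.13 (interval -0.30 to 0.04).

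The oligoadenylate synthetases make a second messenger that activates RNase L, which cuts viral and cellular RNA. Of 7 family members Oasl2 fell and 6 did not pass, and 6 of 7 changes were below 0, against 49.1% of all genes. In 4 of 7 the groups were apart, with all dexamethasone samples below all controls, against 9.46% of all genes. Oas2 stood at 7.78, 7.68 and 7.53 in controls and 7.43, 7.40 and 7.29 under dexamethasone, without overlap (log2 change -0.29, SE 0.082, unadjusted p = 0.00769, limma adjusted p = 0.159). Oas1a had the same size of change, -0.29 (SE 0.099, limma adjusted p = 0.246), with its groups apart, and Oas1b stood at -0.14 (limma adjusted p = 0.450), also apart. Oasl1, which in mouse blocks translation of Irf7 mRNA, had a change of -0.25 (unadjusted p = 0.0452, limma adjusted p = 0.369) with groups that overlapped. The remaining members were Oas1g at -0.04 (interval -0.27 to 0.19) and Oas3 at 0.08 (interval -0.10 to 0.25). Oas1a, Oas1b and Oas1g are close paralogs whose probes may share signal, so the split among them is uncertain.

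Genes of the IFIT family encode proteins that bind viral RNA and hinder its translation. Of 3 genes 0 passed, and 2 were lower at an unadjusted p under 0.05, against 7.14% of all genes. Ifit1 stood at 6.65, 6.74 and 6.78 in controls and 6.41, 6.62 and 6.45 under dexamethasone (log2 change -0.23, SE 0.076, limma adjusted p = 0.245). Ifit3 stood at 6.75, 6.63 and 6.58 in controls and 6.46, 6.48 and 6.46 under dexamethasone (log2 change -0.19, SE 0.064, limma adjusted p = 0.255). In both genes all dexamethasone samples lay below all controls, against 9.46% of all genes. Ifit2 had a change of 0.0043 with an interval from -0.13 to 0.14. The 3 genes were among the dimmest 40% on the array by mean level, as were 15 of the 34 in all. Ifit3 and its paralog Ifit3b may share probes.

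Among the other antiviral effectors, Trim30a fell and 5 of 6 genes did not pass. Mx1, which encodes a dynamin-like antiviral GTPase in strains with an intact gene, stood at 7.02, 6.81 and 7.17 in controls. Under dexamethasone it stood at 6.65, 6.80 and 6.80. The groups did not overlap, control replicate 2 lying just above dexamethasone replicates 2 and 3, and the log2 change was -0.25 (SE 0.10, unadjusted p = 0.0396, limma adjusted p = 0.347). Its paralog Mx2 stood at -0.04 (interval -0.19 to 0.11). Rsad2 (viperin), which makes a chain-terminating nucleotide, and its neighbour Cmpk2, a mitochondrial nucleotide kinase, both had a change of -0.10, with intervals from -0.31 to 0.12 and from -0.23 to 0.03. In Cmpk2 the groups were apart, at 7.95, 7.93 and 7.90 against 7.85, 7.83 and 7.81. Bst2 (tetherin), which holds budding virions at the cell surface, had a change of 0.0095 (interval -0.16 to 0.18).

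The ISG15 system was represented by its ligase and its protease. Herc6, the main ligase for the ubiquitin-like protein ISG15 in mouse, stood at 7.78, 8.01 and 8.02 in controls and 7.65, 7.63 and 7.73 under dexamethasone (log2 change -0.27, SE 0.080, unadjusted p = 0.0109, limma adjusted p = 0.190). Usp18, which removes ISG15 and also silences the receptor chain IFNAR2, stood at 7.50, 7.49 and 7.47 in controls and 7.35, 7.30 and 7.21 under dexamethasone (log2 change -0.20, SE 0.062, unadjusted p = 0.0119, limma adjusted p = 0.198). In both genes all dexamethasone samples lay below all controls, against 9.46% of all genes, and neither passed.

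The ADP-ribosyltransferase genes Parp9 and Parp14 were measured, with the ubiquitin ligase gene Dtx3l, whose protein pairs with PARP9. In 3 of 3 all dexamethasone samples lay below all controls, against 9.46% of all genes. Parp14 stood at 8.88, 8.93 and 8.96 in controls and 8.62, 8.69 and 8.72 under dexamethasone. Its log2 change was -0.25 (SE 0.060), and its limma adjusted p of 0.106 (unadjusted p = 0.00340) was the lowest among the genes that did not pass. Parp9 stood at 7.84, 7.84 and 7.83 in controls and 7.60, 7.59 and 7.77 under dexamethasone (log2 change -0.18, SE 0.068, limma adjusted p = 0.297). Dtx3l stood at -0.10 (interval -0.23 to 0.03). Of the remaining listed genes, Ifi35, which encodes a partner of the protein NMI, had a change of 0.06 (interval -0.18 to 0.30), and Ifi27l2a one of -0.15 (interval -0.44 to 0.13).

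**Figure D4:**
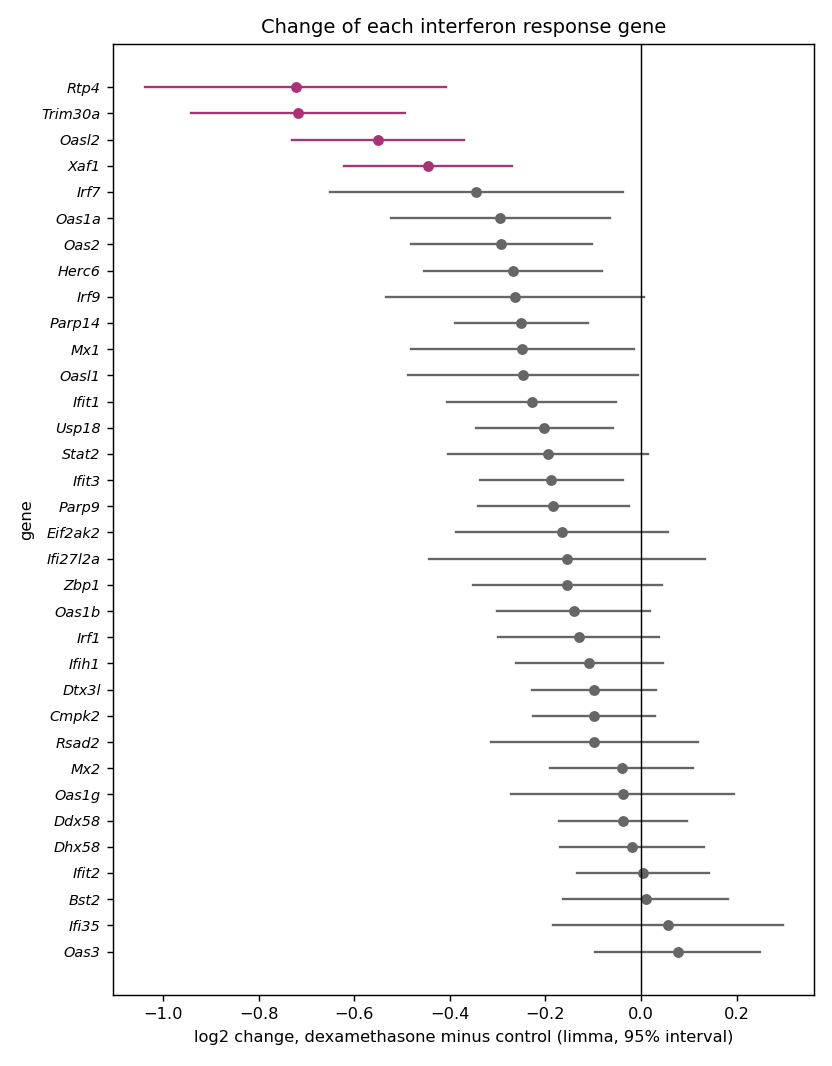
Log2 change, dexamethasone minus control (points), with limma's 95% interval (lines), for each of the 34 interferon response genes ordered by size. The 4 genes past the threshold are purple, from -0.72 for Rtp4 to -0.45 for Xaf1; the other 30 are grey, from -0.34 for Irf7 to 0.08 for Oas3.

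Changes were also set beside the promoter letters, as a description. The 12 listed genes with the response element core had a median log2 change of -0.14, with 1 lower call (Trim30a) and 10 changes below 0. The 11 with a window but without the core had a median of -0.25, with 2 lower calls (Oasl2 and Xaf1) and 9 below 0. Over the 594 tested genes with the core in their window the median was -0.0016, and 1.85% were called lower, against 1.01% of the 14528 without it. Of the 3 genes that fell and had a window, Trim30a held the core, as did genes that did not pass, such as Ddx58, Bst2 and Oas3.

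Upstream of the listed genes, 0 genes passed the test. Of 15 interferon genes of types I, II and III 0 passed by limma and 2 were higher at an unadjusted p under 0.05, Ifnab and Ifna14, which were at 0.21 and 0.25 (limma adjusted p = 0.142 and 0.269). Ifnb1 had a change of -0.0036 (interval -0.14 to 0.13) and Ifng one of -0.09 (interval -0.27 to 0.10). Interferon alpha genes are near-identical copies, and 11 of the 15 genes were among the dimmest 40%, so their levels are uncertain. Of 6 receptor chains 0 passed by limma, with 1 lower at an unadjusted p under 0.05. Ifnar1 and Ifnar2 stood at -0.08 (interval -0.28 to 0.13) and -0.0017 (interval -0.13 to 0.13), and the interferon gamma receptor chains Ifngr1 and Ifngr2 at 0.12 and -0.30 (limma adjusted p = 0.661 and 0.233). Of 3 kinase genes 0 passed by limma and 1 was lower at an unadjusted p under 0.05. Jak1 and Tyk2 stood at -0.03 and -0.06, and Jak2, which serves the interferon gamma receptor, at -0.24 (unadjusted p = 0.00506, limma adjusted p = 0.130). Of 11 genes that induce interferon 0 passed by limma and 1 was lower at an unadjusted p under 0.05, Tbk1, a kinase that activates IRF3, at -0.21 (limma adjusted p = 0.275). Irf3 itself stood at 0.07. Of 8 inhibitors of the pathway 0 passed by limma and 0 had an unadjusted p under 0.05, with Socs1 at 0.04 and Socs3 at 0.05.

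The families most like the listed genes were set beside them with no test of the difference. Of 13 interferon-induced GTPases of the GBP and IRG families, which act on vacuoles that hold pathogens, 3 fell and 0 rose. These 3 are 23.1% of the list, against 1.04% of all genes lower. The median log2 change of the 13 was -0.37. Gbp4, Iigp1 and Gbp3 fell 2.65-fold, 1.78-fold and 1.45-fold (limma adjusted p = 0.000649, 0.00519 and 0.0212). Gbp4 and Iigp1 kept their calls without each array in turn, while that of Gbp3 ended in 3 of the 6 fits on 5 arrays (those lacking the second control, the first dexamethasone sample or the second; adjusted p up to 0.119). Of 17 genes of class I presentation 1 fell (5.88%, against 1.04% of all genes), and the median was -0.11. This was H2-Q6, at 1.28-fold lower (limma adjusted p = 0.0398, a call that ended on omitting any 1 of the 6 arrays, up to 0.201). By array, the mean deviation of the 34 listed genes from their own means was 0.12, 0.06 and 0.11 in controls and -0.08, -0.15 and -0.07 under dexamethasone. That of the GTPases was 0.18, 0.22 and 0.19 against -0.15, -0.24 and -0.20. In both lists all dexamethasone arrays lay below all controls, and dexamethasone replicate 2 was the lowest. All dexamethasone arrays also lay below all controls in 2 other lists, by smaller amounts. For class I presentation the means were 0.12, -0.00097 and 0.06 against -0.04, -0.11 and -0.03. For the macrophage and dendritic markers they were 0.0003, 0.04 and 0.06 against -0.05, -0.0077 and -0.04.

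**Figure D5:**
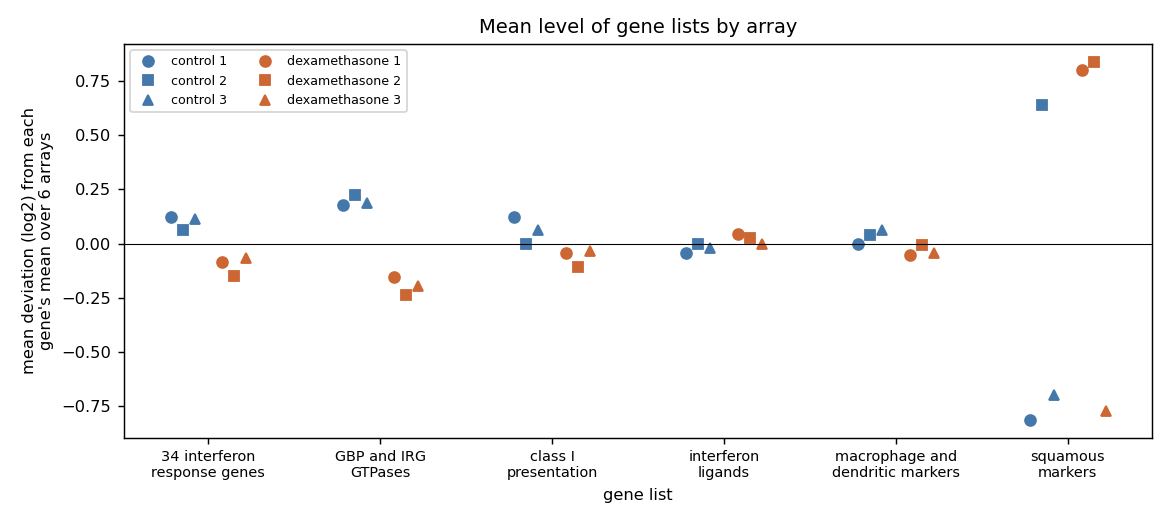
Mean deviation (log2, vertical axis) of 6 gene lists from each gene's own mean over the 6 arrays; blue points are control and orange points dexamethasone samples, with circles, squares and triangles for replicates 1, 2 and 3. All dexamethasone points lie below all control points for the 34 interferon response genes, the GTPases, class I presentation and the macrophage and dendritic markers. The interferon ligands overlap, and squamous markers set control replicate 2 with dexamethasone replicates 1 and 2.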

How the data were processed

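Biotin-labelled cRNA from total RNA of 6 mouse gastric corpus samples was hybridised to 1-colour Affymetrix arrays, per the labels' protocols. The deposited values are on a log2 scale, 1 per probe set and array, and the submitters' processing notes name R 2.9, limma and RMA without their roles. For the chip definition's version and any filter, nothing is given in the sources used here. RMA normally includes quantile normalization, so changes are relative to the bulk of genes.

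Of 20985 probe sets, 19921 had 1 symbol in the platform annotation, 0 had several and 1064 were not listed and stayed unnamed. For the 2 symbols with 2 probe sets the brighter was kept, giving 19919 genes. All 34 genes measured matched RefSeq (GRCm38.p6) by gene ID, with 0 symbols changed.

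The linear models were fitted without a filter by limma 3.58.1 (lmFit and eBayes, two-sided) under R 4.3.3, with Benjamini-Hochberg adjustment over 19919 genes and a threshold of 0.05. Each p, interval (95%) and SE is limma's. The number of arrays limits the precision. The steps were tested on simulated data with independent noise and with changes larger than those of most listed genes. Recovery of changes as small as theirs was not tested. The genes and lists were chosen with earlier results of these data known, so no p is given for the list. By the naming rule every listed gene may be named, with values in all samples for those past the threshold and the 2 of smallest p in each role. Of other genes it takes the receptor chains, Jak1, Tyk2, Irf3, Fkbp5 and Tsc22d3, and in each list those past the threshold and up to 3 of smallest p. Other names (such as Ifi205, the remaining Ifitm genes, Trim30b, Trim30d, Ifnb1, Ifng and the Socs genes) were chosen after their values were seen. Alternatives were the replicate number as a block, median centring, quantile normalization, the dimmest 40% left out, a trend and robust prior, array weights, all probe sets, the squamous mean as a covariate and each array left out.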

Additional observations from a re-analysis of the deposited data

How the results depend on the processing

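Across 14 alternatives 0 listed genes were called higher, and the median log2 change lay between -0.19 and -0.16 on leaving out 1 array and between -0.20 and -0.17 under the other 8. The number of lower calls, 4 with all arrays, was 7 with array weights, which added Herc6, Parp9 and Parp14 and raised the calls over all genes from 367 to 1776. It ranged from 0 to 4 on leaving out 1 array, where lower calls over all genes ranged from 48 to 297 and higher calls from 39 to 284, against 208 and 159. Whether the replicate numbers pair the samples cannot be told, since deviations of only 3 arrays per group are tied to each other. Deviations from the group means had correlations of -0.28, 0.35 and 0.23 for numbers 1, 2 and 3. Control replicates 1 and 2 matched dexamethasone replicates 3 and 1 best, the latter at 0.38, and control replicate 3 matched dexamethasone replicate 3 best. With the replicate block 3 listed genes passed, Xaf1 losing its call (limma adjusted p = 0.0882), and all calls were 220 against 367. Leaving out the dimmest 40% kept 19 of the 34 genes, without Xaf1, and 3 passed. There were 6 genes near 0 that changed sign under some setting and did not pass, and the cause was not tested: Ifit2 at -0.013 after median centring, -0.013 after quantile normalization and -0.023 with the squamous covariate, Bst2 at -0.0077 after median centring, Mx2 at 0.0035 with array weights and Oas1g at 0.039 with the covariate. Leaving out 1 array gave ranges of -0.018 to 0.040 for Ifit2, -0.043 to 0.072 for Bst2, -0.15 to 0.034 for Oas1g, -0.062 to 0.020 for Dhx58 and -0.050 to 0.15 for Ifi35. The other 28 genes kept their sign in each setting that tested them. Of the 34 genes 15 were among the dimmest 40%, and each group had 3 arrays.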

Other observations

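Of 57 interferon-induced genes measured outside the listed 36, 5 fell (8.77%, against 1.04% of all genes) and 1 rose (against 0.798%) by limma, and the median log2 change was -0.11. At an unadjusted p under 0.05, 22 were lower and 4 higher, where 7.14% and 5.97% of all genes were, so that the number higher was near the share over all genes. Ifi203, of the interferon-inducible DNA-sensor family on which Ifi204 and Ifi205 also lie, fell 2.08-fold (limma adjusted p = 0.00967). Its log2 values were 7.70, 8.24 and 7.88 in controls and 6.89, 6.85 and 6.93 under dexamethasone. Ifi205 stood above its controls in all 3 dexamethasone samples, at 6.97, 7.70 and 7.25 against 6.41, 6.52 and 6.64, without passing (log2 change 0.79, limma adjusted p = 0.0769). Genes of this family are close paralogs that may share probes.

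Ddx60, a helicase that aids RIG-I, fell 1.41-fold (limma adjusted p = 0.0176), Mlkl, the executor of necroptosis, 1.43-fold (0.0307), Sp100, a nuclear body protein, 1.42-fold (0.0337) and Samd9l, a restriction factor, 1.39-fold (0.0396). On leaving out 1 array these calls were lost in 2, 4, 5 and 4 of 6 cases, and that of Ifi203 in 3 (adjusted p up to 0.106, 0.158, 0.173, 0.198 and 0.0645). The Ifitm genes, which encode membrane proteins that block virus entry, had log2 changes above 0. Ifitm1 rose 1.31-fold (log2 values 9.04, 9.13 and 8.92 against 9.38, 9.39 and 9.49, limma adjusted p = 0.0499), a call lost without each array in turn (up to 0.204), and Ifitm2 and Ifitm3 had log2 changes of 0.35 and 0.23 (limma adjusted p = 0.129 and 0.499).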
